A study of Mus musculus with 47 samples.

Results

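DNA replication genes were followed in cultured mouse JB6 cells, which derive from epidermis and are labelled as progenitor cells. The set lists 44 genes that license and fire origins, unwind and copy DNA, join its fragments, supply nucleotides or drive entry into S phase. Among probe sets annotated with exactly 1 gene symbol, the one of highest mean signal across the 47 arrays stood for its gene. 43 of the 44 genes have such a probe set, out of 12393 genes in the series, and Gins2 has none. Tyms, which encodes thymidylate synthase, lay below the limit for tested genes, with group means between 3.84 and 4.75 on the log2 scale, so 42 of 8675 tested genes were members. Cells carrying a stable retroviral short hairpin RNA (shRNA) against AnxA2 received 10 or 100 cGy of X-rays and were collected at 2, 6 and 24 h. Sham-treated shRNA cells, called untreated here, were collected at 2 and 24 h. Cells with the Ps vector made up the same 8 groups; the labels describe puromycin selection for the stable cells. Groups hold 3 arrays each, and the vector group given 10 cGy and collected at 24 h holds 2. Each genotype is 1 selected line, and no untreated 6 h group is among the samples used here, so hours in culture and irradiation cannot be told apart at 6 h. The labels do not say whether replicates were separate cultures, so p-values measure only the spread between these samples.

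A eukaryotic cell copies its genome in steps. The origin recognition complex, with Cdc6 and Cdt1, loads the Mcm2-7 helicase on origins in G1, and geminin blocks a second loading. Cdc7 kinase with Dbf4 and the cyclin E kinases then fire the origins with Cdc45 and the GINS complex. Polymerases alpha, delta and epsilon copy the strands, and the RFC complex loads the clamp PCNA. Many of these genes are known targets of E2F factors and peak around the G1 to S transition, whereas mitotic genes peak later, many of them through the CHR and CCAAT promoter elements.

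The array signals are log2 values after robust multi-array averaging (RMA), so a difference of 1 is a doubling of the signal. Anxa2 had group means between 10.70 and 11.16 in shRNA cells and between 12.34 and 12.61 in vector cells, so the lines were told apart in all groups. Epidermal keratinocyte markers were mostly weak: 4 of 8 lay above the low-signal limit of 4.35, and Cdh1, which encodes E-cadherin, averaged 2.37 in shRNA cells and 2.36 in vector cells. Krt14 averaged 6.57 in shRNA cells and 3.84 in vector cells. Of 7 mesenchymal markers 6 lay above the limit, with Col1a2 at 12.97 in shRNA cells and 12.24 in vector cells, and Pdgfra at 6.98 in shRNA cells and 9.53 in vector cells. The log2 of the summed signal of the keratinocyte list ran from 7.51 to 8.00 over shRNA arrays and from 6.84 to 7.23 over vector arrays. Of these 8 markers Krt14 had by far the largest difference between the lines. For the mesenchymal list the sum ran from 14.40 to 14.90 over shRNA arrays and from 13.95 to 14.45 over vector arrays. The part of these markers in the line differences was not tested. Of 5 leukocyte markers measured, 2 lay above the limit, and Ptprc, which encodes CD45, averaged 2.63 in shRNA cells and 2.52 in vector cells. The replicate 3 arrays of vector cells at 2 h (untreated, 10 and 100 cGy) separated from the remaining 6 vector arrays of that time on the second principal component. A Gapdh 3′ minus 5′ signal difference above 0.3, a sign of shortened RNA or labelling, occurred on 4 arrays. They were replicate 1 of shRNA cells 6 h after 10 cGy (1.06), replicate 3 of untreated vector cells at 2 h (0.594), replicate 2 of shRNA cells 2 h after 100 cGy (0.492) and replicate 1 of untreated shRNA cells at 2 h (0.309).

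E2F, CHR and CCAAT words were counted in promoter windows, and only some of the members hold each. RefSeq windows of the GRCm38.p6 build run from 250 bases before to 50 bases after a gene's start. They were found for 36 of the 44 genes. The start used can lie inside the gene's RefSeq span, as it does for Orc1, Cdc6, Mcm5, Pola1 and Tk1 among the genes printed below. Some genes have several windows, and a word in any of them counts, as in Mcm7 and Lig1. The windows were searched on both strands for the E2F words TTTCCCGC, TTTGGCGC, TTTCGCGC and TTTGCCGC. A word occurred in 12 of these 36 genes (33.3%), in 1 of 39 mitotic genes with a window (2.56%), and in 402 of 9883 array genes with a window (4.07%). In 31 other S-phase genes that are not members the share was 38.7%. The CHR words TTTGAA and TTCGAA occurred in 22.2% of the member genes, against 76.9% of the mitotic genes and 17.3% of the array genes. CCAAT occurred in 58.3% of the member genes, 76.9% of the mitotic genes and 42.3% of the array genes. The 12 members with an E2F word are Mcm3, Mcm5, Mcm6, Mcm7, Orc1, Cdc6, Cdt1, Rfc3, Pola1, Pold1, Pole2 and Lig1. The 200 bases before the start are printed for 5 of them and for Rfc4 and Tk1, which hold no such word in the window and had the largest falls at 6 h in vector cells; capitals mark the E2F words, and a pair of them overlaps in Mcm5 and in Mcm6.
Mcm5, chr8:75109309-75109508, plus strand: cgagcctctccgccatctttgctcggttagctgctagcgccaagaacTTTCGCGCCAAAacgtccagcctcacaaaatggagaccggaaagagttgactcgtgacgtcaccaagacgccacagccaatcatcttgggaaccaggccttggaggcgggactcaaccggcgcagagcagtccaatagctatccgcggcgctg
Mcm6, chr1:128359706-128359905, minus strand: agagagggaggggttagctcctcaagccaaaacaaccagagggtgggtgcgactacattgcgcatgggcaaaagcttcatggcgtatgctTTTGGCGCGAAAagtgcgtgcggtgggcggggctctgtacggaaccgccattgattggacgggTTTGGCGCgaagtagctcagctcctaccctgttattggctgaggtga
Pola1, chrX:93632156-93632355, minus strand: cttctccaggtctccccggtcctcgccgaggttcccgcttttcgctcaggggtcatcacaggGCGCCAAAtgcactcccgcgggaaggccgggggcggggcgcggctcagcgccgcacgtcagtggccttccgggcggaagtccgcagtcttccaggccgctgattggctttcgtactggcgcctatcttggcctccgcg
Orc1, chr4:108579254-108579453, plus strand: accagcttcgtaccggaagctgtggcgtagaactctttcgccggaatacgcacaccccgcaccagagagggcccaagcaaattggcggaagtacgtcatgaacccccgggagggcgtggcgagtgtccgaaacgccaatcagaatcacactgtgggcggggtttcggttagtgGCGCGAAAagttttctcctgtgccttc
Cdc6, chr11:98907951-98908150, plus strand: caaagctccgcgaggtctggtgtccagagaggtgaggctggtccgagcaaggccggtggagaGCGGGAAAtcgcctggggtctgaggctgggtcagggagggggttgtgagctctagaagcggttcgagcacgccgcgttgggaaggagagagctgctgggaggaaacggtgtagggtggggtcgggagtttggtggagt
Rfc4, chr16:23127731-23127930, minus strand: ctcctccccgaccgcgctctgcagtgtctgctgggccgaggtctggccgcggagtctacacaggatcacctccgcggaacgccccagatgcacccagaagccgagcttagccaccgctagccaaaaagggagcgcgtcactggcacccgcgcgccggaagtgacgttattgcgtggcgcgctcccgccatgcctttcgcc
Tk1, chr11:117826015-117826214, minus strand: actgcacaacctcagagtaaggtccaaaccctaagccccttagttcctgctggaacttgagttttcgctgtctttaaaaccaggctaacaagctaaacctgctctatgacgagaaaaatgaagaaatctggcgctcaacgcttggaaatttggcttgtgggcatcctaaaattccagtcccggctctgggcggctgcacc

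Most members were at their lowest 6 h after X-rays in both lines. Of 42 members 26 had the lowest of the 8 group means of shRNA cells at 6 h (61.9%), against 24.4% of all tested genes. In vector cells 34 of 42 did (81.0%), against 29.4% of all tested genes. The mean log2 signal over the members was 8.71 at 10 cGy and 8.72 at 100 cGy in shRNA cells at 6 h, and lay between 8.82 and 8.92 in the other 6 groups of that line. In vector cells it was 8.83 and 8.76 at 6 h for the same doses, and between 8.97 and 9.07 in the other 6 groups. The 6 h arrays of each line lay below all of that line's other arrays except a single pair: the lowest other shRNA array, at 8.76 24 h after 100 cGy, was under the highest 6 h array, at 8.77.

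**Figure D1:**
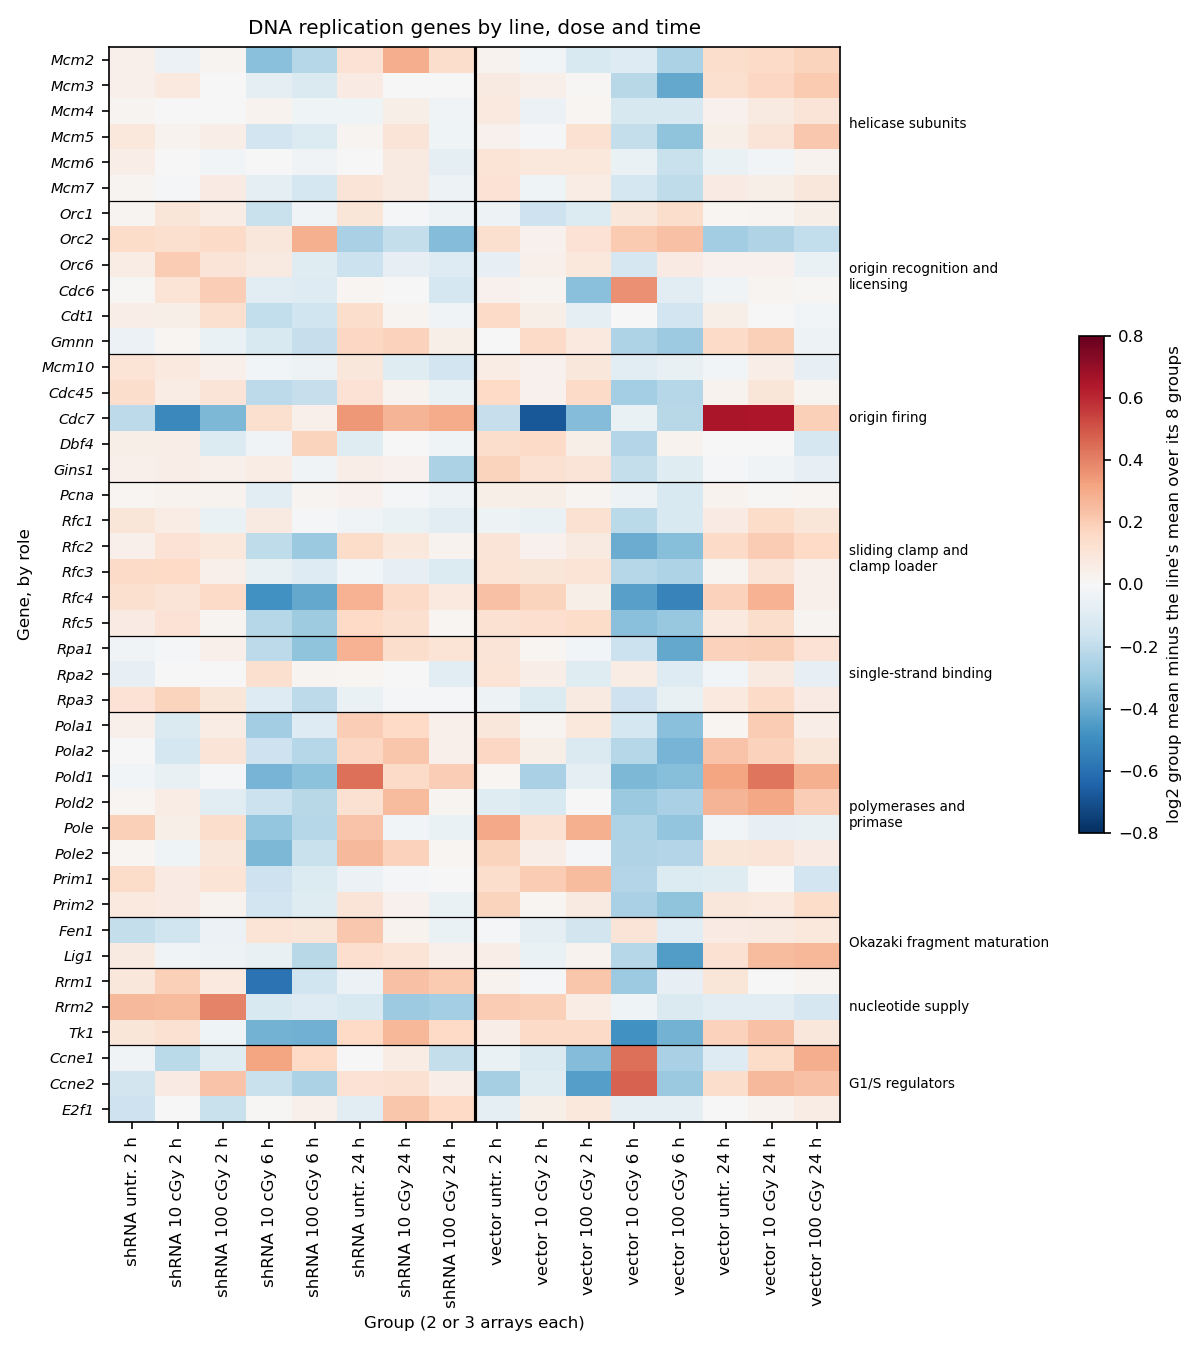
Each row is 1 of the 42 tested members, grouped by role, and each column 1 of the 16 groups of 2 or 3 arrays, with shRNA cells left of vector cells and, within a line, times from low to high and the untreated group before the doses. Colour gives the log2 group mean minus the mean of that gene's 8 group means in the line: the 6 h columns are blue for most polymerase, clamp loader and helicase genes, while Orc2 is blue at 24 h and Cdc7 is blue at 2 h.

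The first comparison set 6 h against 2 h in irradiated cells, with both doses weighted equally. It used a limma model of the 16 group means with p-values adjusted by Benjamini-Hochberg over 8675 genes; a gene is said to have been called when its adjusted p is below 0.05. In irradiated shRNA cells 17 of 42 members were lower (40.5%) and 2 higher, when 9.51% of all tested genes were called lower and 12% higher (21.5% either way). In irradiated vector cells 20 were lower (47.6%) and 2 higher, when 7.82% of all tested genes were called lower and 8.9% higher (16.7% either way). The median difference of the members was -0.18 in shRNA cells and -0.20 in vector cells, while the medians of all tested genes were 0.02 and -0.02. 12 members were lower in both lines, which is 70.6% of the 17 and 60% of the 20: Mcm7, Cdc45, Rfc2, Rfc4, Rfc5, Rpa1, Pole, Pole2, Prim1, Prim2, Rrm2 and Tk1. Of the mitotic genes 14 were lower in both lines, which is 73.7% of 19 in shRNA cells and 60.9% of 23 in vector cells. This overlap was not computed over all tested genes. The lines share no arrays. In RNA of whole cultures, fewer cells in S phase and less RNA per cell cannot be told apart. With the 3 vector arrays that stand apart left out, 21 members were lower and 3 higher in vector cells. Without the 4 arrays of high Gapdh difference, 20 were lower and 2 higher in shRNA cells. In vector cells 26 were then lower and 5 higher. No shares over all tested genes were computed for these fits.

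Among the members Rfc4, of the clamp loader, had the largest fall in each line. RFC opens the PCNA ring and sets it on primed DNA, and Rfc2, Rfc4 and Rfc5 encode small subunits of it. Rfc4 read 7.30, 7.84 and 7.55 at 6 h after 10 cGy and 7.65, 7.62 and 7.63 after 100 cGy in shRNA cells, against 8.26, 8.08 and 8.11 and then 8.29, 8.07 and 8.25 at 2 h. In vector cells Rfc4 read 7.48, 7.53 and 7.26 and then 7.17, 7.40 and 7.40 at 6 h, against 8.01, 8.07 and 8.03 and then 7.91, 7.94 and 7.85 at 2 h. No 6 h array reached a 2 h array in either line. The fall of Rfc4 was -0.58 ± 0.07 in shRNA cells (SE, limma adjusted p = 6.27e-08), which left 67.1% of the 2 h signal, and -0.60 ± 0.07 in vector cells (adjusted p = 4.3e-08). Rfc5 fell by 0.33 in shRNA cells and by 0.46 in vector cells, and Rfc2 by 0.35 and 0.42 in the same order. Rfc3 fell by 0.34 in vector cells. Pcna, the clamp itself, had a difference of -0.06 ± 0.06 in shRNA cells and -0.12 ± 0.06 in vector cells, and neither was called; it had the narrowest range of group means of all members, 0.20.

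Nucleotide supply was the next group. Tk1, the cytosolic thymidine kinase that salvages thymidine in S phase, read 8.76, 9.10 and 9.07 after 10 cGy and 8.93, 9.08 and 8.91 after 100 cGy in shRNA cells at 6 h, against 9.49, 9.43 and 9.51 and then 9.48, 9.02 and 9.47 at 2 h. The arrays overlapped only through the 9.02 of replicate 2 after 100 cGy, an array with a high Gapdh difference. In vector cells Tk1 read between 9.27 and 9.52 on the 6 arrays at 6 h and between 9.82 and 10.24 at 2 h, without overlap. Its fall was -0.42 ± 0.08 in shRNA cells (adjusted p = 7.87e-05) and -0.58 ± 0.08 in vector cells (adjusted p = 7.21e-07). Rrm2, the small subunit of ribonucleotide reductase, fell by 0.44 in shRNA cells, where all 6 h arrays were below all 2 h arrays, and by 0.20 in vector cells, a call that 8 of 20 alternative settings lost. Rrm1, the large subunit, was called lower in shRNA cells (-0.51 ± 0.19, adjusted p = 0.0443). Replicate 1 after 10 cGy read 8.26 there and the other 5 arrays at 6 h between 9.81 and 10.14, and without that array the difference was -0.20 and the call was lost.

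**Figure D2:**
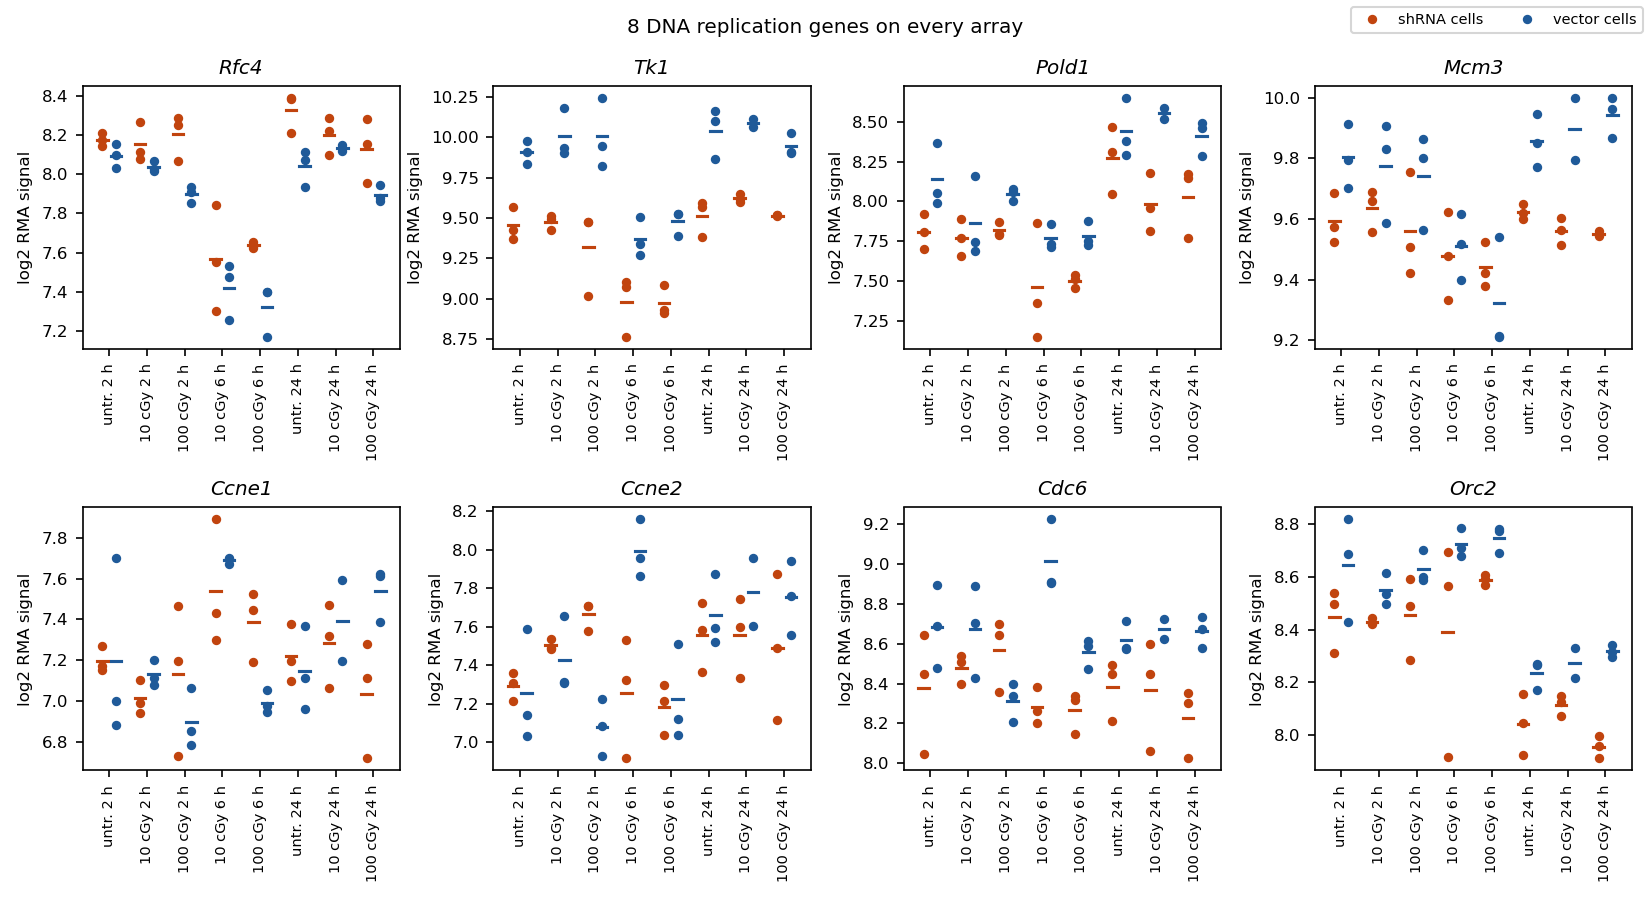
log2 RMA signal of 8 members on every array by treatment and time, with shRNA cells in orange left of vector cells in blue; points are arrays and bars group means. Rfc4 and Tk1 are low at 6 h in both lines, Pold1 and Mcm3 are highest at 24 h in vector cells, Ccne1, Ccne2 and Cdc6 are high 6 h after 10 cGy in vector cells, and Orc2 is low at 24 h.

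Polymerase and primase genes fell in 5 of 8 cases in each line. Pole, the catalytic subunit of polymerase epsilon, fell by 0.36 in shRNA cells and by 0.49 in vector cells, where the 6 h arrays read between 7.79 and 8.06 and the 2 h arrays between 8.25 and 8.54. Pole2, its second subunit, fell by 0.30 and 0.26, and the primase subunits Prim1 and Prim2 fell by 0.23 and 0.18 in shRNA cells and by 0.40 and 0.33 in vector cells. For Prim2 a second, weaker probe set read 0.05 in shRNA cells, opposite in sign. Pold1, the catalytic subunit of polymerase delta, was called in shRNA cells (-0.31), and Pola1, that of polymerase alpha, in vector cells (-0.29). Rpa1, which binds single-stranded DNA, fell by 0.28 in shRNA cells and by 0.29 in vector cells. Lig1, which seals Okazaki fragments, fell by 0.32 in vector cells.

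Of 6 helicase subunits 2 were lower in shRNA cells and 3 in vector cells. Of 6 origin recognition and licensing genes 1 was lower in shRNA cells, and 1 was lower and 1 higher in vector cells. Mcm7 was called lower in both lines, by 0.13 in shRNA cells and by 0.18 in vector cells, and the shRNA call was lost in 13 of 20 alternative settings. Mcm2 fell by 0.27 in shRNA cells, and its difference in vector cells was -0.11 (adjusted p = 0.328). Mcm3 fell by 0.34 and Mcm5 by 0.31 in vector cells, and Mcm6 was not called in shRNA cells (-0.01) or vector cells (-0.20, adjusted p = 0.0549). Cdt1 fell by 0.27 in shRNA cells, and Gmnn, which encodes geminin, by 0.39 in vector cells. Cdc45, the helicase cofactor, fell by 0.28 in shRNA cells and by 0.34 in vector cells. Gins1 and Dbf4 fell by 0.26 and 0.20 in vector cells. E2f1 was called in neither line, with 0.12 ± 0.09 in shRNA cells and -0.14 ± 0.09 in vector cells.

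Members with and without an E2F word in the promoter window, as capitalised above, were both among those that fell. Of the 12 members with a word, 4 were called lower at 6 h in shRNA cells and 7 in vector cells, with 1 called higher there. Of the 23 tested members with a window and no word, 9 were lower and 2 higher in shRNA cells, and 8 were lower in vector cells. Rfc4 and Tk1, with the largest falls in vector cells, are among those without a word. These are counts of letters in a fixed window and say nothing of binding.

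Cyclin E genes, Cdc6 and Cdc7 gave mixed directions: Ccne1 and Cdc7 were called higher and Ccne2 lower in shRNA cells, and Ccne2 and Cdc6 were called higher in vector cells. Ccne2, a regulatory subunit of the kinase that drives S-phase entry, read 7.96, 8.16 and 7.87 in vector cells 6 h after 10 cGy, against 7.31, 7.66 and 7.31 at 2 h. After 100 cGy it read 7.51, 7.04 and 7.12 at 6 h, against 7.22, 7.08 and 6.93 at 2 h, so the difference came mostly from the lower dose. Over both doses it was 0.36 ± 0.12 in vector cells (adjusted p = 0.0298) and -0.36 ± 0.12 in shRNA cells (adjusted p = 0.0212). In shRNA cells the 6 h arrays read 6.92, 7.53 and 7.32 and then 7.21, 7.30 and 7.04, against 7.53, 7.49 and 7.49 and then 7.58, 7.71 and 7.71 at 2 h. Replicate 1 after 10 cGy, the 6.92, has the highest Gapdh difference, and without arrays of that kind the shRNA difference was -0.27 (adjusted p = 0.124).

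Cdc6, which loads the helicase, read 8.91, 9.22 and 8.91 in vector cells 6 h after 10 cGy and 8.59, 8.62 and 8.47 after 100 cGy, against 8.70, 8.89 and 8.43 and then 8.40, 8.34 and 8.21 at 2 h. Its difference was 0.29 ± 0.10 in vector cells (adjusted p = 0.0294) and -0.25 ± 0.10 in shRNA cells (adjusted p = 0.058). Without the 3 vector arrays that stand apart, the vector differences were 0.20 for Cdc6 and 0.29 for Ccne2, and neither was called. The change from 2 h to 6 h itself differed between the lines for these genes alone among the members, both lower, when 1.34% of all tested genes were called higher and 1.51% lower (2.85% either way). The difference of the differences, shRNA minus vector, was -0.72 ± 0.16 for Ccne2 (adjusted p = 0.00896) and -0.54 ± 0.13 for Cdc6 (adjusted p = 0.0181). Of 36 other S-phase genes 1 was called in that comparison, Cdca7 (-0.37), and of 46 mitotic genes none, with 0 of 18 G1 regulators and p53 targets.

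Ccne1, the other cyclin E, was higher at 6 h in shRNA cells (0.39 ± 0.12, adjusted p = 0.016), and its difference in vector cells was 0.32 ± 0.12 (adjusted p = 0.0588). The vector difference came from 10 cGy, where Ccne1 read 7.67, 7.70 and 7.70 at 6 h and 7.20, 7.08 and 7.11 at 2 h. After 100 cGy it read 6.95, 7.05 and 6.98 at 6 h and 6.85, 6.79 and 7.06 at 2 h. Cdc7, the origin-firing kinase, was higher at 6 h in shRNA cells, with 6.83, 6.80 and 6.49 and then 6.74, 6.64 and 6.49 at 6 h, against 6.20, 5.89 and 6.10 and then 6.22, 6.15 and 6.28 at 2 h. No arrays overlapped, and the difference was 0.52 ± 0.17 (adjusted p = 0.0266); without arrays of high Gapdh difference it was 0.48 and not called (adjusted p = 0.0972). In vector cells Cdc7 at 2 h read 5.57 and 6.05 after 10 cGy and 6.38 and 6.39 after 100 cGy on replicates 1 and 2. The replicate 3 arrays that stand apart read 7.49 and 7.34. At 6 h the vector arrays read 7.08, 7.06 and 6.85 after 10 cGy and 6.74, 6.86 and 6.88 after 100 cGy. The vector difference was 0.38 and was not called, so the rise is not shown to be particular to shRNA cells.

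Many members rose between 6 h and 24 h. In irradiated shRNA cells 19 of 42 members were higher at 24 h than at 6 h (45.2%) and 3 lower, when 20.7% of all tested genes were called higher and 18.6% lower (39.2% either way). In irradiated vector cells 23 were higher (54.8%) and 1 lower, when 22.4% of all tested genes were called higher and 16.5% lower (39% either way). The medians were 0.15 and 0.23 in shRNA and vector cells, and -0.01 and 0.02 over all tested genes. Of the polymerase and primase genes 6 of 8 rose in shRNA cells and 7 of 8 in vector cells. Of the clamp and clamp loader genes 3 of 6 rose in shRNA cells and 5 of 6 in vector cells, and of the helicase subunits 2 of 6 in shRNA cells and 5 of 6 in vector cells. The 2 comparisons share the 6 h arrays, so a low 6 h value enters both.

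Pold1 read 7.96, 8.18 and 7.81 after 10 cGy and 8.17, 8.15 and 7.77 after 100 cGy in shRNA cells at 24 h, against 7.87, 7.36 and 7.15 and then 7.52, 7.45 and 7.54 at 6 h. In vector cells Pold1 lay between 8.29 and 8.59 on the 5 arrays at 24 h and between 7.71 and 7.87 on the 6 arrays at 6 h. The rise was 0.52 ± 0.10 in shRNA cells (adjusted p = 3.74e-05), with overlap, and 0.71 ± 0.10 in vector cells (adjusted p = 6.89e-07), without. Rfc4 rose by 0.56 and 0.64, and Tk1 by 0.59 in both lines, which brought the 24 h signal to 151% of that at 6 h. Pold2, the second subunit of polymerase delta, rose by 0.34 in shRNA cells and 0.53 in vector cells. Lig1 rose by 0.21 and 0.60, Mcm2 by 0.50 and 0.34, and Mcm3 by 0.50 in vector cells. Cdc7 rose by 0.55 in vector cells. Of the members described in each comparison of times, Mcm6, Cdc6, Pcna and E2f1 were not called in either line, with differences between -0.12 and 0.17.

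Orc2, a subunit of the origin recognition complex, went the other way in both lines. In shRNA cells at 24 h it read 8.13, 8.07 and 8.15 after 10 cGy and 7.91, 7.96 and 8.00 after 100 cGy, against 7.92, 8.70 and 8.57 and then 8.57, 8.59 and 8.61 at 6 h. In vector cells it read between 8.22 and 8.34 at 24 h and between 8.68 and 8.79 at 6 h. Only replicate 1 of shRNA cells after 10 cGy at 6 h, with the high Gapdh difference, lay among the 24 h values. Orc2 fell by 0.46 ± 0.08 in shRNA cells (adjusted p = 1.47e-05) and by 0.44 ± 0.08 in vector cells (adjusted p = 5.12e-05). In shRNA cells Rrm2 (-0.17) and Ccne1 (-0.30) were also lower at 24 h and Ccne2 was higher (0.30). Of 20 alternative settings 10, 9 and 9 lost these calls. Another Rrm2 probe set, with a mean of 10.53, read 0.09 there, opposite in sign. In vector cells Rrm2 had a difference of -0.03, Ccne1 of 0.13 and Ccne2 of 0.16, with adjusted p of 0.755, 0.481 and 0.344.

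**Figure D3:**
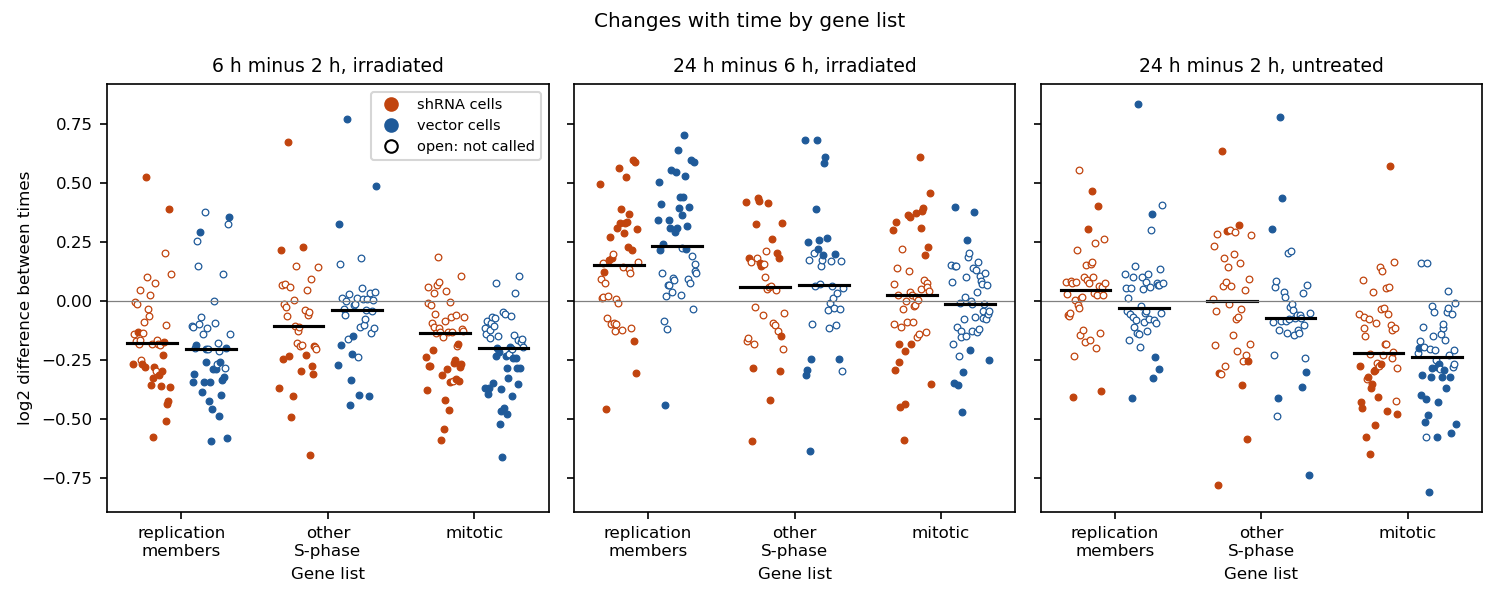
log2 difference of each tested gene in 3 lists for 3 comparisons of times, with shRNA cells in orange left of vector cells in blue; filled points were called, open points were not, and bars are medians. The members fall at 6 h and rise at 24 h, and the mitotic genes fall at 6 h and between 2 and 24 h without irradiation, where the members lie around 0.

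Mitotic and replication genes gave different counts and medians from 6 h to 24 h, in untreated cells and between the doses. At 6 h against 2 h both lists held many called falls: 19 of 46 mitotic genes were lower in shRNA cells and 23 in vector cells, with none higher, and their medians were -0.13 and -0.20. The largest falls there were those of Ube2c (-0.59), Nusap1 (-0.54), Nuf2 (-0.46) and Prc1 (-0.42) in shRNA cells and of Nusap1 (-0.66), Ube2c (-0.52), Nuf2 (-0.48) and Top2a (-0.47) in vector cells. From 6 h to 24 h the mitotic genes were split: 12 rose and 9 fell in shRNA cells, and 3 rose and 6 fell in vector cells, with medians of 0.03 and -0.01. Kif23, a motor of the spindle midzone, fell by 0.59 in shRNA cells and by 0.47 in vector cells, while Aurkb rose by 0.40 in vector cells. The difference between the lists was not tested. The replicate 3 vector arrays at 2 h had a mitotic mean between 9.32 and 9.35, against 9.07 to 9.23 on the other 6 vector arrays at 2 h. After 100 cGy replicates 1 and 2 read 9.11 and 9.07 at 2 h, and the 6 h vector arrays between 9.07 and 9.09. After 10 cGy these replicates read 9.08 and 9.11 at 2 h, and the 6 h arrays between 8.74 and 8.87. Mitotic calls without the replicate 3 arrays were not counted.

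**Figure D4:**
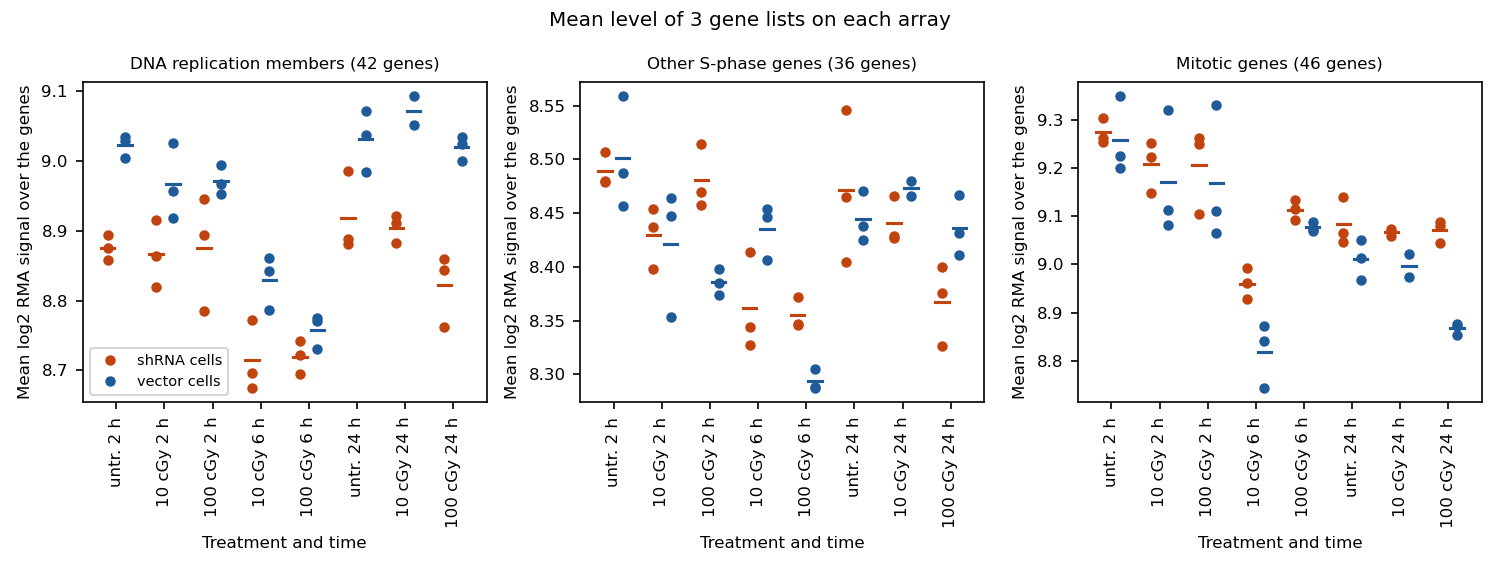
Mean log2 RMA signal over the genes of a list on every array, for 42 replication members, 36 other S-phase genes and 46 mitotic genes, with shRNA cells in orange left of vector cells in blue and bars at group means; each panel has its own scale. The member means are lowest at 6 h at both doses, whereas the mitotic means are lowest 6 h after 10 cGy and, in vector cells, again 24 h after 100 cGy.

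In untreated cells many mitotic genes and few replication genes were lower at 24 h than at 2 h. Of 46 mitotic genes 15 were lower and 1 higher at 24 h in untreated shRNA cells, and 19 were lower and none higher in untreated vector cells, with medians of -0.22 and -0.24. Of 42 members 2 were lower and 3 higher in shRNA cells, when 9.14% of all tested genes were called lower and 10.1% higher (19.2% either way). In vector cells 4 were lower and 2 higher, when 12.9% were called lower and 13% higher (25.9% either way). The medians of the members were 0.05 and -0.03. Both lines had lower Orc2 at 24 h (-0.41 in each) and lower Rrm2 (-0.38 in shRNA cells and -0.29 in vector cells). Untreated shRNA cells had higher Pold1 (0.47 ± 0.14), Fen1, the flap endonuclease (0.40 ± 0.13), and Rpa1 (0.31 ± 0.10). Untreated vector cells had higher Cdc7 (0.84 ± 0.25) and Pold2 (0.37 ± 0.12) and lower Pole (-0.33) and Prim1 (-0.24). Without the 3 vector arrays that stand apart, Cdc7 rose by 0.99, and Pold2 had a difference of 0.24 and was not called. Alternative settings lost the calls of Pold2 and Prim1 in 6 of 14 each, of Rrm2 in vector cells in 5 of 14 and of Pole in 3 of 14. Mcm2, Mcm6, Cdc6, Pcna, Ccne1, Ccne2 and E2f1 were not called in either line; the differences ran from -0.16 for Mcm6 to 0.41 for Ccne2, both in vector cells. No member was called in the difference of these changes between the lines (limma, 2 at an unadjusted p under 0.05), when 2.97% of all tested genes were called higher and 2.72% lower (5.69% either way).

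Cdc7 had the widest range of group means of all members, 1.64. In shRNA cells it read between 6.72 and 7.07 at 24 h and between 6.24 and 6.62 at 2 h without irradiation. In vector cells it read 7.74, 7.67 and 7.69 at 24 h and 6.67, 6.76 and 7.17 at 2 h, where the 7.17 is the replicate 3 array that stands apart.

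The other S-phase genes, chromatin assembly, checkpoint, repair and further origin factors, gave mixed counts. At 6 h against 2 h 11 of 36 were lower and 3 higher in shRNA cells, and 8 lower and 3 higher in vector cells, with medians of -0.11 and -0.04. The replisome protector genes Timeless and Tipin, and Dtl, which targets Cdt1 for degradation, were among the falls: Timeless by 0.49, Dtl by 0.65 and Tipin by 0.40 in shRNA cells, Timeless by 0.44 and Dtl by 0.40 in vector cells. Dna2, a nuclease of Okazaki fragments, rose by 0.68 in shRNA cells and by 0.77 in vector cells, and Ung, the uracil glycosylase, by 0.49 in vector cells. From 6 h to 24 h 12 rose and 5 fell in shRNA cells, with Timeless at 0.44 and Orc3 at 0.42, and 11 rose and 5 fell in vector cells, with Orc3 at 0.68, Timeless at 0.68 and Dnmt1 at 0.61. Without irradiation 3 rose and 5 fell between 2 and 24 h in shRNA cells, and 3 rose and 4 fell in vector cells.

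Of the 18 tested G1 regulators and p53 targets, 1 was higher in shRNA cells and 2 in vector cells 2 h after 100 cGy against untreated cells, and at 24 h 0 in shRNA cells and 1 in vector cells; none was lower. Mdm2, which encodes the ubiquitin ligase of p53, rose 2 h after 100 cGy against untreated cells by 0.63 in shRNA cells and by 0.88 in vector cells. Cdkn1a, which encodes the inhibitor p21, rose by 0.61 there in vector cells and had a difference of 0.22 in shRNA cells (adjusted p = 0.909). At 24 h after 100 cGy Cdkn1a rose by 0.82 in vector cells and had a difference of 0.05 in shRNA cells. At 6 h against 2 h 1 gene of this list was higher and 3 were lower in shRNA cells, and 2 were higher and 3 lower in vector cells. From 6 h to 24 h 6 rose and 4 fell in shRNA cells, and 5 rose and 7 fell in vector cells. Rbl2, which encodes the E2F partner p130, rose by 1.14 between 6 h and 24 h in shRNA cells, and Cdkn2c, a Cdk4 and Cdk6 inhibitor, by 0.70 in vector cells.

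No member was called when irradiated cells were set against untreated cells of the same time. For 100 cGy at 2 h, 0 of 42 were called in shRNA cells (limma, 1 at an unadjusted p under 0.05) and 0 in vector cells (3), when 0.0231% and 0.0461% of all tested genes were. At 24 h 0 were called in shRNA cells (7 unadjusted) and 0 in vector cells (1), when 0.161% and 0.0922% were, of which 0.138% and 0.0692% were higher and 0.0231% lower in each. In the difference between the lines 0 were called (1 unadjusted), when 0.0692% of all tested genes were higher and 0.0115% lower (0.0807% either way). For 10 cGy over both lines 0 were called at 2 h (2 unadjusted) and 0 at 24 h (0 unadjusted), when 0% of all tested genes were called. The median standard error of a member was 0.10 for a dose in 1 line and 0.07 or 0.08 over both. Differences of about these sizes were not detectable, and much larger ones, such as the -0.37 of Cdc6 below, were not called either. Rfc4 at 2 h read 8.29, 8.07 and 8.25 after 100 cGy and 8.14, 8.21 and 8.17 without irradiation in shRNA cells. At 2 h after 100 cGy in vector cells Cdc6 had a difference of -0.37, with an interval from -0.64 to -0.10, and Ccne1 of -0.30, from -0.64 to 0.05. In shRNA cells Ccne2 had 0.37, from 0.04 to 0.70. At 24 h in vector cells Ccne1 had 0.39, from 0.05 to 0.74. These 95% intervals are for single genes and not adjusted. Mcm2, Mcm6, Pcna and Rrm2 had differences between -0.15 and 0.13 in the 4 comparisons of 100 cGy, and E2f1 between -0.01 and 0.25. Cdc6, Ccne1 and Ccne2 lay between -0.37 and 0.39 there. For 10 cGy over both lines, at 2 h and at 24 h, these 8 members lay between -0.12 for Ccne1 and 0.19 for Ccne2, both at 2 h.

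At 24 h after 100 cGy against untreated cells, 33 of 42 members lay below 0 in shRNA cells (78.6%), with a median of -0.11, and 23 in vector cells (54.8%), with a median of -0.01, when 54.7% and 43.9% of all tested genes lay below 0. Gins1 had the lowest p there in shRNA cells (adjusted p = 0.45). The medians of the mitotic genes were 0.00 in shRNA cells and -0.15 in vector cells, and 40 of the 46 lay below 0 in vector cells, none of them called.

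The doses were set against each other at 6 h. In vector cells 1 of 42 members differed, when 0.0922% of all tested genes, 8 in number, were called, and in shRNA cells 0 (1 at an unadjusted p under 0.05), when 0% were. Ccne2 was lower after 100 cGy than after 10 cGy in vector cells, with the values given above, by -0.77 ± 0.16 (adjusted p = 0.0419), a call lost in 9 of 14 alternative settings, among them a fit with the replicate number as a block (adjusted p = 0.0716) and 5 of the 6 fits that left out 1 of the compared arrays. In the fit with the block Ccne1 was called in its place (adjusted p = 0.0484). Ccne1 read 6.95, 7.05 and 6.98 after 100 cGy and 7.67, 7.70 and 7.70 after 10 cGy, without overlap, and its difference of -0.70 ± 0.17 was not called (adjusted p = 0.178). Cdc6 had -0.45 ± 0.13 (adjusted p = 0.696). In shRNA cells the differences were -0.07 for Ccne2, -0.15 for Ccne1 and -0.02 for Cdc6. Mcm2, Mcm6, Pcna, Rrm2 and E2f1 had differences between -0.15 and 0.11 in both lines. The median of the members was -0.02 in shRNA cells and -0.05 in vector cells.

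Most mitotic genes lay higher after 100 cGy than after 10 cGy at 6 h. In vector cells 45 of 46 lay above 0, when 51% of all tested genes did, with a median of 0.24, and 5 were called, among them Aurka (0.61), Cenpf (0.54), Ckap2 (0.51) and Cdc20 (0.43). In shRNA cells 42 of 46 lay above 0, when 46.9% of all tested genes did, with a median of 0.15 and 0 called. Of the other S-phase genes Ung (-0.95) and Chaf1b (-0.50) were lower after 100 cGy in vector cells, 2 of 36, and 0 were called in shRNA cells. None of the 18 G1 regulators and p53 targets was called in either line, and Cdkn1a had 0.12 in shRNA cells and 0.29 in vector cells. Seen by dose, most members lay lower at 6 h than at 2 h: 34 of 42 lay below 0 at each dose in shRNA cells (81%), and 34 after 10 cGy (81%) and 35 after 100 cGy (83.3%) in vector cells. Of all tested genes 44.3% and 46.3% lay below 0 at these doses in shRNA cells, and 53% and 52.8% in vector cells. The mitotic median for the same interval was -0.25 after 10 cGy and -0.11 after 100 cGy in shRNA cells, and -0.31 and -0.09 in vector cells. From 6 h to 24 h it was 0.11 and -0.03 in shRNA cells and 0.16 and -0.21 in vector cells, while the member median was between 0.12 and 0.27 throughout.

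With the untreated groups of 2 h and 24 h averaged as the baseline, 15 of 42 members were lower and 1 higher 6 h after 100 cGy in shRNA cells, when 15% of all tested genes were called. In vector cells 20 were lower and 1 higher, when 18.4% were called. Orc2 was the higher one in both lines, by 0.34 in shRNA cells and by 0.31 in vector cells. Against the untreated 2 h group alone its difference was 0.14 in shRNA cells and 0.10 in vector cells, called in neither. Alternative settings lost the Orc2 call in 3 of 19 in shRNA cells and in 6 of 19 in vector cells. The medians of the members were -0.18 and -0.28. Mcm2 was lower by 0.30 in shRNA cells and by 0.33 in vector cells, while Mcm6, Cdc6, Pcna, Rrm2, Ccne1, Ccne2 and E2f1 were not called in either line, with differences between -0.24 for Ccne2 and 0.18 for Ccne1, both in shRNA cells. With the untreated 2 h group alone as the baseline, 8 members were called in shRNA cells and 17 in vector cells, all lower. With the untreated 24 h group alone, 16 were lower and 2 higher in shRNA cells, and 21 lower and 1 higher in vector cells. Shares over all tested genes were not computed for these single baselines. Of 46 mitotic genes 6 were lower and 2 higher in shRNA cells, and 7 lower and 1 higher in vector cells, with medians of -0.05 in each. Cdkn1a rose by 0.40 in shRNA cells and by 0.86 in vector cells. Of the other S-phase genes 10 were lower and 2 higher in shRNA cells and 14 lower and 1 higher in vector cells, and of the G1 regulators and p53 targets 3 were lower and 2 higher and 4 lower and 2 higher.

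The lines themselves were compared at 3 times. In untreated cells at 2 h 9 of 42 members were lower in shRNA than in vector cells (21.4%) and 1 higher (2.38%), when 17.5% of all tested genes were called lower and 16.3% higher (33.8% either way). At 24 h 8 were lower (19%) and 5 higher (11.9%), when 19.9% and 19.4% were (39.3%), and at 6 h after X-rays, over both doses, 14 were lower (33.3%) and 6 higher (14.3%), when 24.5% and 25.3% were (49.8%). Mcm7, Gmnn, Rfc2, Rfc5 and Tk1 were lower in all 3 comparisons, 5 of 42 members (11.9%), when 11.3% of all tested genes were. No member was higher in all 3, when 10.4% of all tested genes were. Whether these shares of the members differ from those of other genes was not tested.

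Among the members Rfc5 had the lowest p for the line difference in all 3 comparisons. Over the 24 shRNA arrays it ran from 7.76 to 8.30 with a median of 8.14, and over the 23 vector arrays from 8.31 to 8.95 with a median of 8.77. It was the only one of the 42 tested members whose arrays did not overlap between the lines (2.38%), when 7.53% of all tested genes had no overlap. Its difference was -0.64 ± 0.07 at 2 h (adjusted p = 1.09e-09), -0.53 ± 0.05 at 6 h (adjusted p = 1.07e-11) and -0.51 ± 0.07 at 24 h (adjusted p = 1.25e-07). Tk1 differed by -0.45, -0.45 and -0.53 at these times, Mcm7 by -0.41, -0.25 and -0.27, Gmnn by -0.40, -0.23 and -0.33, and Rfc2 by -0.35, -0.17 and -0.30. Cdc7 was lower in shRNA cells at 24 h (-0.77 ± 0.25), and Pole and Pole2 at 2 h (-0.36 each) and 6 h (-0.23 each).

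Some members were higher in shRNA cells. Orc1, the largest subunit of the origin recognition complex, had 7.13, 7.36 and 7.36 in untreated shRNA cells at 2 h and 6.73, 6.75 and 7.20 in untreated vector cells, overlapping through the replicate 3 array that stands apart. Its difference was 0.39 ± 0.14 at 2 h (adjusted p = 0.0342) and 0.41 ± 0.14 at 24 h (adjusted p = 0.0212). Cdt1 was higher at 24 h (0.38) and 6 h (0.19), as were Rfc4 (0.29 and 0.23), Pola1 (0.30 and 0.16) and Prim1 (0.25 and 0.23). Mcm5 was called higher at 6 h only, with 0.15 after 10 cGy and 0.32 after 100 cGy. It kept that call in all 20 alternative settings. At 6 h, over both doses, Cdc6 was lower by -0.51 ± 0.10, Ccne2 by -0.39 ± 0.12 and Mcm2 by -0.31 ± 0.07. By dose the Ccne2 difference was -0.74 after 10 cGy and -0.04 after 100 cGy. That of Cdc6 was -0.73 and -0.29, and that of Mcm2 -0.44 and -0.18, in the same order. Rrm2 was lower at 6 h and 24 h (-0.23 each). Alternative settings lost the 24 h call of Rrm2 in 9 of 14, among them all 6 fits without 1 of the compared arrays, the 2 h call of Orc1 in 5 of 14 and its 24 h call in 3 of 14. At 6 h they lost the call of Pola1 in 10 of 20. Mcm6, Pcna, Ccne1 and E2f1 were called at none of the 3 times, with differences between -0.23 and 0.12.

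**Figure D5:**
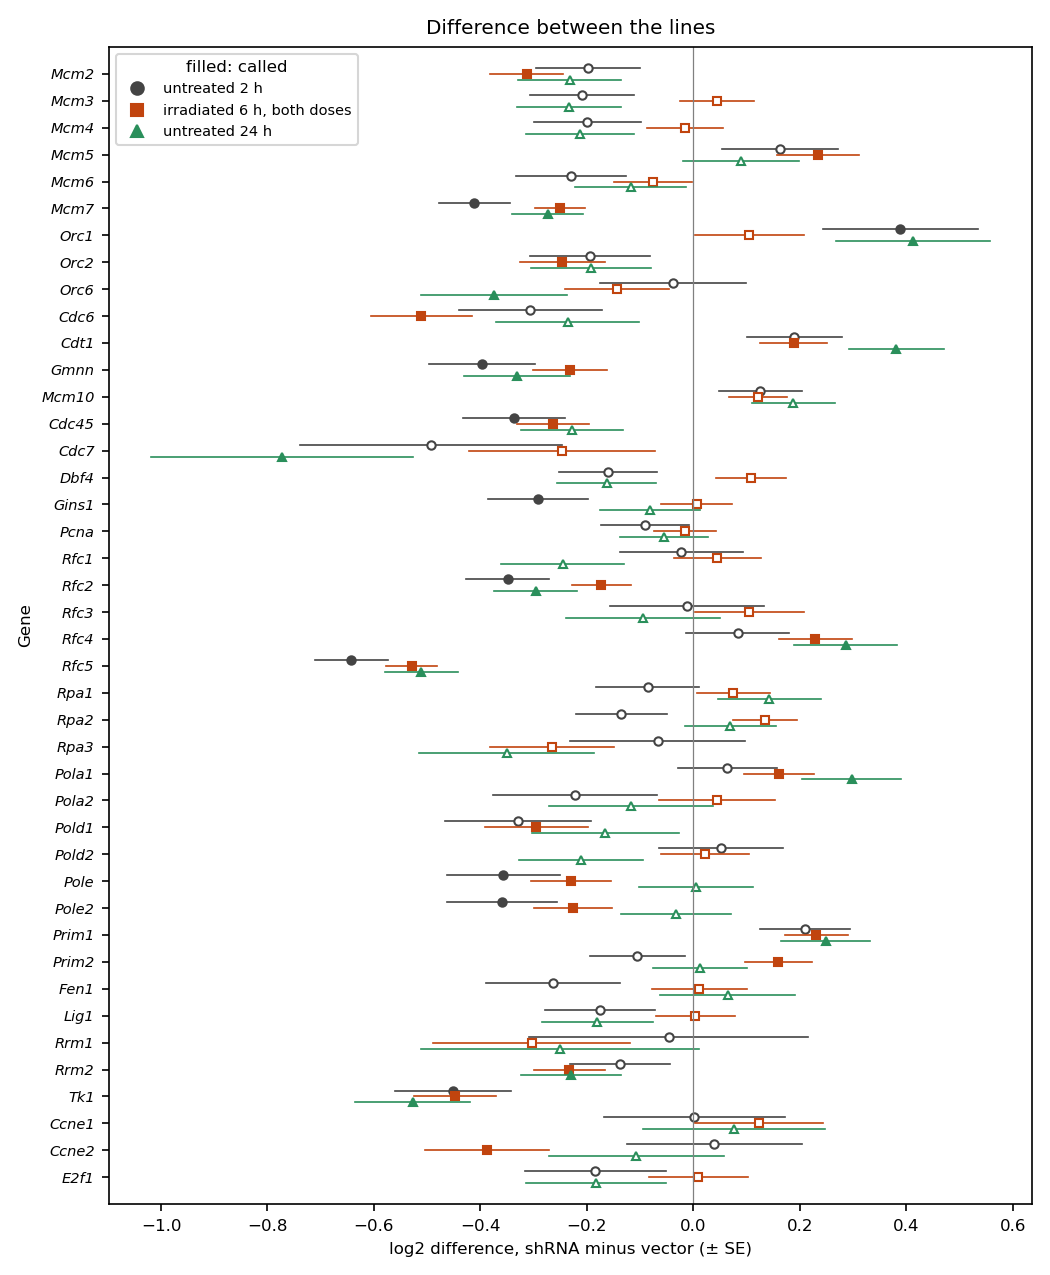
log2 difference between the lines, shRNA minus vector, for the 42 tested members, with bars for 1 standard error; circles are untreated cells at 2 h, squares irradiated cells at 6 h over both doses and triangles untreated cells at 24 h, filled where called. Rfc5 lies near -0.5 or below at each time, and Orc1, Cdt1, Rfc4, Pola1 and Prim1 lie above 0.

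The other lists stood beside this as follows. Of 46 mitotic genes 8, 15 and 9 were higher in shRNA cells and 6, 6 and 6 lower at 2 h untreated, 6 h irradiated and 24 h untreated, with Prc1 at 0.63 and Kif20a at 0.58 at 24 h. Of the other S-phase genes 2, 11 and 8 were higher and 6, 10 and 9 lower, with Donson, a replication fork protein, at 0.66, 0.53 and 0.69. Of the G1 regulators and p53 targets 3, 3 and 5 were higher and 4, 4 and 2 lower, and Ccnd2, which encodes cyclin D2, was higher at each time, by 0.67, 0.56 and 0.72. Cdkn1a had a difference of 0.22 at 2 h and 0.06 at 6 h and was higher at 24 h (0.65).

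Over the 16 groups, with each line centred on its own mean, most members followed each other. Rfc2 and Rfc4 had a Pearson correlation of 0.95 with the mean of the other members, and Prim2, Rpa1 and Mcm7 one of 0.93, 0.93 and 0.92. At the other end stood Orc2 (-0.65), Ccne1 (-0.22), Orc1 (-0.03), Dbf4 (-0.02), Orc6, Fen1 and Cdc6 (each between -0.01 and 0.00). With the mitotic mean the correlation was 0.87 for Prim1, 0.70 for Dbf4 and for Pole and 0.68 for Rrm2, and -0.74 for Ccne1 and -0.69 for Fen1. The mean of the members and the mitotic mean had a correlation of 0.27 over the 16 groups, 0.47 over the 8 shRNA groups and 0.17 over the 8 vector groups. The points share arrays and their normalization, so these values describe the 16 groups only.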

How the data were processed

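RNA of 47 samples was hybridised to Affymetrix mouse arrays (22690 probe sets, model not stated in the labels). The authors deposited log2 values, from 1.84 to 14.03, made by RMA according to the submitters' processing notes, and these were used without further normalization. No scanner files were used, and 0 value columns of the table went unused. The number of arrays limits the precision. Groups follow the labelled line, dose and time; replicate 2 of the vector group given 10 cGy and collected at 24 h was not analysed here.

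Controls made up 64 probe sets; 20380 carry exactly 1 symbol, 691 carry several and 1555 none, and only those with 1 were used. All 43 measured members matched the RefSeq table of GRCm38.p6 by Entrez number, and 0 symbols needed an update. The genes in the lowest 30% by mean signal (under 4.35) were not tested. 21 members have another probe set above that limit: of 123 called member and comparison pairs with one, 120 had the same sign.

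A limma fit (version 3.58.1, R 4.3.3) of 16 group means to all arrays gave 22 comparisons, with two-sided p-values adjusted by Benjamini-Hochberg over 8675 genes. It had 31 residual and 5.68 prior degrees of freedom, so the group of 2 arrays is taken to vary like the others. The method was tested on simulated data. Whether replicate numbers pair the arrays was checked by correlating deviations from group means between groups of one line and time. Of 12 pairs of groups with 3 shared numbers, 5 had every same-numbered pair of arrays over 0.1. Among them were 100 cGy against untreated in vector cells at 2 h and at 24 h. These 5 were taken as paired by this rule alone, without differently numbered arrays for comparison. Elsewhere arrays were taken to share only a number. Members, gene lists, comparisons and alternatives were chosen with earlier results of these data known. Values are given for called members with the largest changes, up to 3 in each role, for Mcm2, Mcm6, Cdc6, Pcna, Rrm2, Ccne1, Ccne2 and E2f1 in the comparisons of times and doses and, between the lines, where called, for up to 4 called genes of each other list, and for Cdkn1a; others were chosen after their values were seen. Promoter sequences are RefSeq's. Alternatives were a repeated quantile normalization, no filter, the mean of all probe sets, a trended robust prior, only the compared groups, a replicate block, other baselines and left-out arrays, of which the fits without the 4 arrays of high Gapdh difference were chosen after seeing the data.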

Additional observations from a re-analysis of the deposited data

Results flagged for a closer look

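The change between 2 h and 6 h after X-rays differed between the lines for 2 members, by a test of the difference itself (limma). For Ccne2 the difference, shRNA minus vector, was -0.72, the sum of a fall in shRNA cells and a rise in vector cells. For Cdc6 it was -0.54, with a rise in vector cells and no call in shRNA cells. Over 32 alternative settings the difference ran from -0.79 to -0.62 for Ccne2, which was called in all of them. For Cdc6 it ran from -0.59 to -0.45, and only the fit without replicate 2 of vector cells 6 h after 10 cGy lost the call (adjusted p = 0.0505). In vector cells both genes were highest after 10 cGy at 6 h.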

How the results depend on the processing

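No called member changed sign in any alternative: of 3373 values for 181 called pairs of member and comparison, 3054 stayed called and 319 did not. The number of members called moved by over 1.5 times, or lost all calls of its leading direction, in the following cases. For 100 against 10 cGy at 6 h in vector cells, 1 call became 0 with a repeated quantile normalization or no filter, 2 without the 3 vector arrays that stand apart and 2 without arrays of a high Gapdh difference. For the lines untreated at 2 h, 10 calls became 16 with the mean of all probe sets and 5 with only the compared groups, and at 24 h 13 became 21 without high Gapdh arrays. For 24 against 2 h in untreated vector cells 6 calls became 1 with only the compared groups, and 11 without high Gapdh arrays. Without the 3 vector arrays the line difference of the 6 h change had 4 calls instead of 2, and 10 cGy at 2 h 1 instead of 0. For 100 cGy at 6 h in shRNA cells 16 calls became 8 against untreated 2 h alone. Leaving out 1 array at a time gave 1 to 9 calls for untreated vector cells (1 without replicate 1 at 2 h, 3 without replicate 3 at 24 h) and 2 to 5 for untreated shRNA cells (2 without replicate 3 at 2 h, replicate 1 at 24 h or replicate 3 at 24 h). It gave 0 to 1 for 100 against 10 cGy at 6 h in vector cells, 1 to 3 for the line difference of the 6 h change, 0 to 1 for 10 cGy at 2 h (1 without replicate 3 of vector cells), and 9 to 15 for 100 cGy at 6 h in shRNA cells (9 without replicate 1 and 10 without replicate 3 of that group). The cause of these moves was not tested, except that leaving out arrays or groups leaves fewer degrees of freedom. Calls over all tested genes were not counted in the alternatives. The fit with the replicate number as a block kept 180 of the 181 calls and moved no count by over 1.5 times. The lost call was that of Ccne2 for 100 against 10 cGy at 6 h in vector cells. With the block 0 members were called for 100 cGy against untreated vector cells at 2 h and 24 h, as without it. The arrays of these groups were taken as paired. Of 40 same-numbered pairs of arrays 27 correlated over 0.1, and the range was -0.29 to 0.72. Where a pair of groups held lower ones, or only 2 pairs, the arrays were taken to share only a number. The filter on low signal decides whether Tyms is tested, and without detection values no signal could be set against background.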
